A study of Gallus gallus with 9 samples.

Results

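The genes described here had lower deposited values in the thymus of broiler chicks given lipopolysaccharide alone than in both other groups, library by library. One of those groups received lipopolysaccharide too. They were chosen by a rule on the measured values: an Ensembl gene of at least 100 bases, on no mitochondrial, sex or listed small chromosome (16, 25 to 28 and 30 to 33 were left out), with at least 1 FPKM in at least 3 of 9 libraries, whose highest LPS library lay below the lowest of the 3 GEN and the 3 CON libraries. FPKM values are fragment counts normalised for the length of the gene and the depth of the library. In all, 150 genes met the rule, out of 10730 that met every other condition (1.4%) and 25016 in the table. Such a rule also picks some genes where the groups do not differ. How many of the 150 these may be was not estimated, so the count is no sign of an effect by itself. The thymus samples came from ROSS 308 broilers, a fast-growing meat line, on day 21 after hatching, with 3 libraries in each group. GEN chicks received lipopolysaccharide and genistein, LPS chicks lipopolysaccharide alone, and CON chicks the basic diet. Doses, routes, times of exposure and sex are not given in the labels. Nothing in them ties a library to an animal, so any p-value measures the spread between these libraries, which may be technical.

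The thymus is where progenitors become T cells: immature thymocytes rearrange their receptor genes in the cortex and are selected against self-antigens by epithelial and dendritic cells. Lipopolysaccharide, the endotoxin of Gram-negative bacteria, is sensed through Toll-like receptor 4, and in mice a large dose depletes cortical thymocytes. Genistein, an isoflavone of soy, binds oestrogen receptors and inhibits tyrosine kinases. In whole thymus, fewer cells of a type and less RNA per cell cannot be told apart. The table pairs no identifier with a gene name, and 0 identifiers could be matched to a symbol, so genes are given by identifier or by position in GRCg6a, the chicken build of the submitters' notes, with no role; for the same reason the tissue label could not be set against thymocyte or epithelial markers.

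Each library held 19618047 to 25863282 gene fragments. CON 3 stood apart. Its correlation with each other library, over 13506 genes on the log2(FPKM + 1) scale, was 0.877 to 0.888, while the other pairs gave 0.957 to 0.984. The total by which its values had been scaled was 0.767 times its fragments, against 1.01 to 1.09 times in the other libraries. Compared with scaling by fragments, this raises every FPKM of CON 3 relative to the rest. The median of the 10730 genes was still not raised in the deposited values. On the log2(FPKM + 1) scale, relative to each gene's LPS mean, it was -0.04 in CON 3, 0.01 in CON 1 and 0.02 in CON 2. CON 3 was the highest of the 9 libraries for 102 members (68%), and for 33.3% of the 10730 genes. By the rule no LPS library can be the highest for a member, so part of this excess follows from the choice. The group medians and counts that use CON means are given without CON 3 beside the first value.

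Most members were lower in LPS by a small step. The median member stood at 0.783 times its CON mean in LPS (quartiles 0.673 and 0.855), at 0.857 times the mean of CON 1 and CON 2 (quartiles 0.798 and 0.901), and at 1.2 times its LPS mean in GEN (quartiles 1.11 and 1.31). On the log2(FPKM + 1) scale the median difference was -0.31 for LPS minus CON, -0.21 without CON 3, and 0.23 for GEN minus LPS. These values chose the members and are not tested, and LPS libraries enter both differences. Over all 10730 genes the corresponding medians were 0.02, -0.01 and -0.01. As background to the rule, the LPS libraries all lay below the CON libraries for 6.87% of the 10730 genes (12.9% without CON 3), and the GEN libraries all lay above the LPS libraries for 9.31%.

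**Figure D1:**
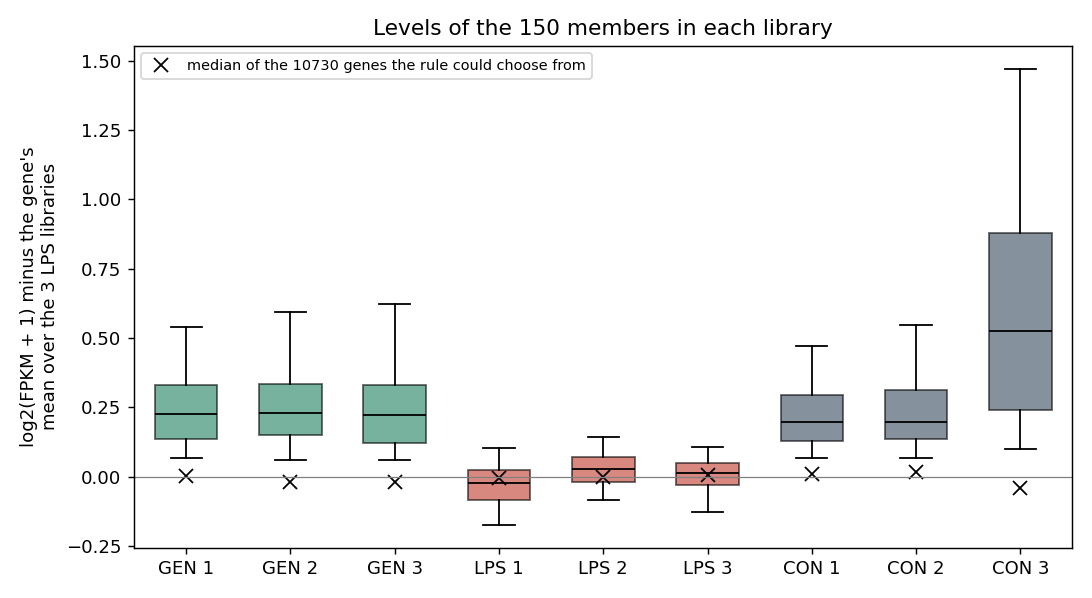
Box plots show, for each library, the log2(FPKM + 1) of the 150 members minus the mean of the 3 LPS libraries of the same gene; boxes span the quartiles, whiskers the 5th to 95th percentile, and crosses mark the median of the 10730 genes the rule could choose from. GEN libraries have medians of 0.22 to 0.23, LPS libraries -0.02 to 0.03, and CON 1 and CON 2 0.2 each, while CON 3 stands at 0.53 with the widest box.

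The plot of levels by library shows an even shift in 5 of the 6 libraries outside LPS. The members' median, relative to their LPS mean, was 0.22 in GEN 1, 0.23 in GEN 2 and 0.22 in GEN 3, and 0.2 in both CON 1 and CON 2. In CON 3 it was 0.53, with quartiles of 0.24 and 0.88. The members' summed FPKM was 5672 to 5810 in GEN, 4848 to 5008 in LPS, 5768 and 5805 in CON 2 and CON 1, and 7619 in CON 3. As a share of gene fragments, which does not depend on the authors' scaling total, the members took 1.55% to 1.61% in GEN, 1.28% to 1.36% in LPS and 1.41% to 1.5% in CON. By that share CON 3, at 1.41% (95% Wilson interval 1.4% to 1.41%, counting error only), was the CON library closest to LPS. A share of fragments counts long genes more heavily than summed FPKM does, so these measures need not rank the CON libraries alike. The members were chosen as lower in LPS on the deposited values, so a lower level or share in LPS largely follows from that choice.

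The widest separation belonged to ENSGALG00000010986 on chromosome 3 (38100145 to 38113286, 2104 bases of transcript). It measured 4.42, 5.42 and 4.29 FPKM in GEN, 1.37, 2.67 and 2.65 FPKM in LPS, and 6.76, 4.61 and 6.91 FPKM in CON. GEN and CON overlapped each other and stood clear of LPS, of which LPS 1 was lowest. It averaged 4.71 ± 0.62 FPKM in GEN, 2.23 ± 0.745 FPKM in LPS and 6.09 ± 1.29 FPKM in CON (SD, n = 3 each), so that GEN stood at 2.11 times LPS and LPS at 0.366 times CON. It rested on 77 to 319 fragments per library.

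The next was ENSGALG00000006189 on chromosome 2 (6325398 to 6329886, 806 bases). It measured 5.28, 5.77 and 11.5 FPKM in GEN, 1.81, 2.67 and 2.21 FPKM in LPS, and 6.08, 3.79 and 5.38 FPKM in CON. GEN 3 was far above the other GEN libraries, so the GEN mean of 7.53 ± 3.48 FPKM rests largely on it, while the LPS mean was 2.23 ± 0.431 FPKM and the CON mean 5.08 ± 1.17 FPKM (SD, n = 3 each). With 39 to 51 fragments in the LPS libraries and 75 in CON 2, the lowest of the other 6, its highest LPS and lowest other library had 95% counting intervals that met.

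**Figure D2:**
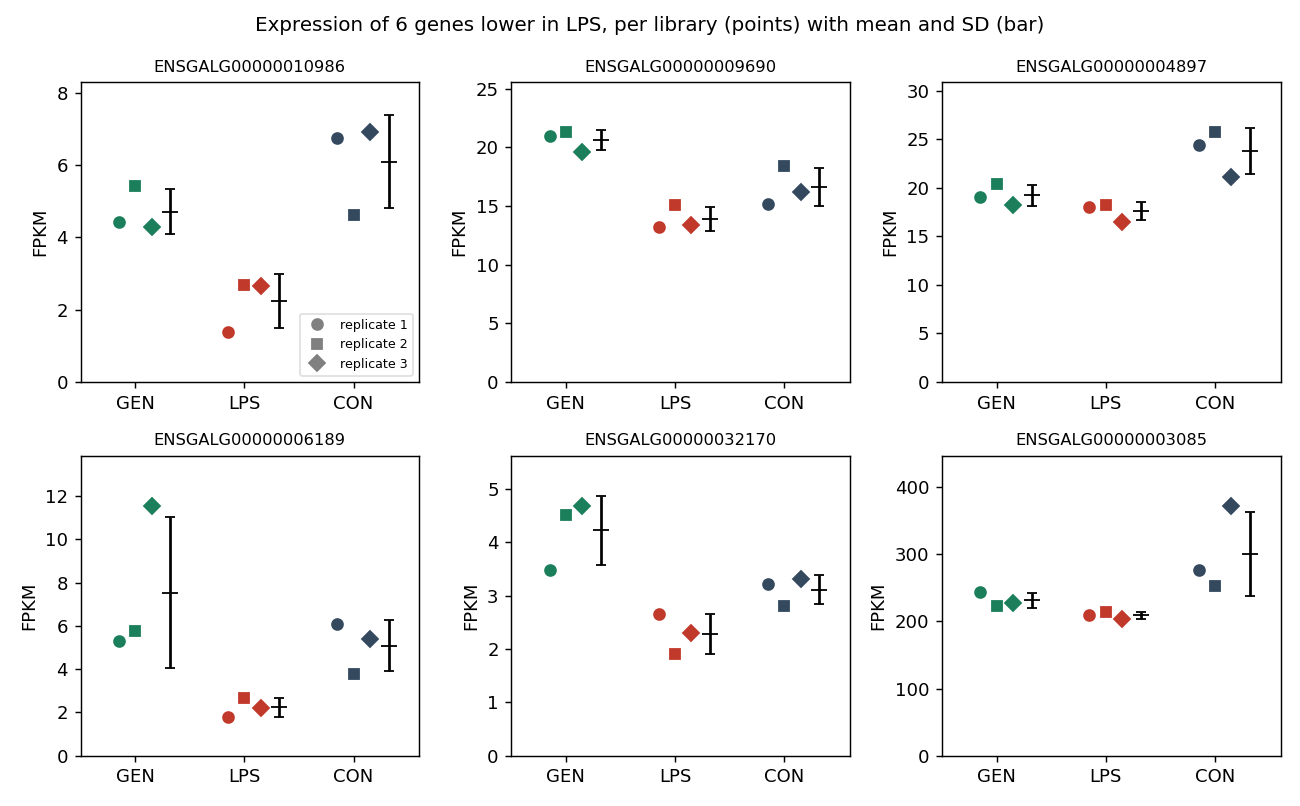
FPKM of 6 members in each library (points; symbols give the replicate number) with the group mean and SD (bar, n = 3), for GEN, LPS and CON from left to right, each axis starting at 0. The left column holds the members with the widest separation, with LPS at 1.37 to 2.67 FPKM in both genes; the middle column those higher in GEN than CON, and the right column those lower in GEN than CON, with the lowest p.

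Large steps were few. The CON and GEN means were both at least 1.5 times the LPS mean for 8 of the 150 members, at least 1.2 times for 62 and at least 1.1 times for 115. Without CON 3 these counts were 6, 49 and 106. The 6 of these 8 not yet named are described by position and were picked out after their values were seen. A gene on chromosome 1 (195648859 to 195651062) measured 14.3, 8.63 and 12 FPKM in GEN, 7.02, 6.43 and 6.88 FPKM in LPS, and 11.5, 10.8 and 23.3 FPKM in CON. Its LPS libraries lay close together, and CON 3 was far above CON 1 and CON 2. A gene on chromosome 4 (34286985 to 34293799) measured 10, 7.94 and 9.4 FPKM in GEN, 5.35, 6.83 and 5.99 FPKM in LPS, and 8.75, 8.28 and 16.5 FPKM in CON, again with CON 3 far above the other CON libraries.

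Chromosome 19 held 4 of the 150 members (1.34% of its genes, against 1.4% of the 10730). Of the 8 genes with large steps, 3 lie on it. The first (5111091 to 5168955) measured 13, 17.5 and 12.2 FPKM in GEN, 7.33, 7.42 and 9.44 FPKM in LPS, and 10.1, 16.5 and 16.5 FPKM in CON. The second (9783481 to 9807365) measured 16.7, 15.6 and 7.17 FPKM in GEN, 5.82, 7.01 and 6.6 FPKM in LPS, and 12.3, 16 and 13.9 FPKM in CON, so that GEN 3 sat just above LPS while the other GEN libraries were at the level of CON. The last (8846492 to 8852834) was the least abundant member, at 1.18, 0.838 and 0.891 FPKM in GEN, 0.557, 0.691 and 0.294 FPKM in LPS, and 0.796, 1.33 and 3.41 FPKM in CON. It rested on 12 to 17 fragments in GEN, 5 to 11 in LPS and 12 to 36 in CON, the only member with under 10 fragments in any library. The remaining gene, on chromosome 8 (16844808 to 16864555), measured 3.63, 4.12 and 6.16 FPKM in GEN, 2.95, 2.3 and 2.55 FPKM in LPS, and 3.23, 4.25 and 6.1 FPKM in CON. The spans of this gene and of the first on chromosome 19 meet those of other gene models, on the opposite strand and on the same strand, so fragments may be shared.

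For most members the counting intervals at the limit of the rule met. The 95% exact Poisson intervals of the highest LPS and the lowest other library met for 139 members and did not meet for 11. These intervals cover counting error only, and intervals that meet do not show that a step lies within counting error. Both libraries are those the rule compared, so the 11 describe the choice and are no test of it. A gene outside the rule cannot have its intervals apart in this direction, so no background share stands beside the 11. The 11 were ENSGALG00000010986 and 10 genes that averaged 15.6 FPKM or more. Of these 10, chosen for display after their values were seen, a gene on chromosome 17 (5481438 to 5500391) measured 16.3, 15.8 and 16.2 FPKM in GEN, 13.2, 13.5 and 12.9 FPKM in LPS, and 17.2, 17.6 and 18.1 FPKM in CON. With the deposited values its groups did not overlap in any pair, but it did not meet the rule when libraries were scaled by fragments. Its span also meets that of another gene model on its strand (5476114 to 5481591), with which fragments may be shared.

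A gene on chromosome 7 (18928191 to 18932697) measured 41.8, 40.9 and 41.4 FPKM in GEN, 31.8, 35.7 and 34.3 FPKM in LPS, and 39.8, 41.9 and 53.5 FPKM in CON. GEN, CON 1 and CON 2 lay close together, between 39.8 and 41.9 FPKM. A gene on chromosome 1 (109326296 to 109332889) measured 165, 217 and 175 FPKM in GEN, 132, 151 and 149 FPKM in LPS, and 220, 197 and 249 FPKM in CON. A gene on chromosome 4 (83883600 to 83903849) measured 82.2, 89.9 and 75.8 FPKM in GEN, 65.6, 67.9 and 69.3 FPKM in LPS, and 82.1, 85.1 and 106 FPKM in CON. In both of these the CON and GEN ranges overlapped and LPS stood below.

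**Figure D3:**
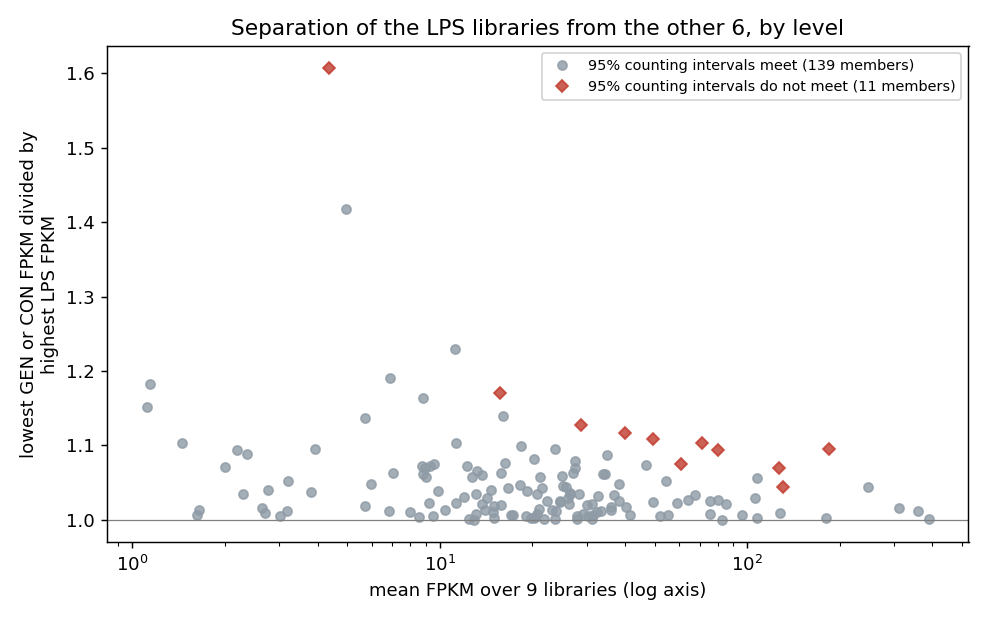
Each point is a member; the x axis gives its mean FPKM over 9 libraries (log axis) and the y axis the lowest GEN or CON value divided by the highest LPS value. The 11 members marked with diamonds are those whose 95% counting intervals did not meet; 16 members lie at or above 1.1 and 3 at or above 1.2, and most crowd near 1.

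The plot of separation against level shows how close most members sat to the limit of the rule. The lowest of the 6 other libraries was at least 1.1 times the highest LPS library for 16 members and at least 1.2 times for 3. Just inside the limit, a gene on chromosome 7 (28878074 to 28910403) had 12.32 FPKM in GEN 3 and 12.319 FPKM in LPS 2. Just outside, a gene on chromosome 3 (69023777 to 69068018) had 6.42 FPKM in GEN 1 and 6.421 FPKM in LPS 2, and so is no member.

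The steps of the most abundant members varied, and the most abundant of all had the smallest GEN-to-LPS ratio of the 150. Of the 150, 12 averaged over 100 FPKM (8%, against 5.32% of the 10730 genes). The highest, on chromosome 7 (15825248 to 15840498), measured 378, 384 and 384 FPKM in GEN, 363, 365 and 378 FPKM in LPS, and 422, 385 and 461 FPKM in CON. Its GEN mean was 1.04 times its LPS mean, and GEN 1, at 377.96 FPKM, lay just above LPS 3, at 377.79 FPKM. A gene of 663 bases on chromosome 1 (48151569 to 48152313) measured 298, 328 and 289 FPKM in GEN, 285, 253 and 204 FPKM in LPS, and 307, 353 and 477 FPKM in CON. A gene on chromosome 4 (14203581 to 14211407) measured 126, 114 and 119 FPKM in GEN, 79, 95.9 and 91 FPKM in LPS, and 101, 113 and 130 FPKM in CON, the largest GEN-to-LPS ratio of the 12 at 1.35.

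Membership depended on how libraries are scaled. With each library scaled to its own sum of fragments in place of the authors' total, 69 genes met the rule (0.641% of 10764), and 59 of the 150 members were among them. This scaling multiplies all values of a library by 1 factor and so lowers every gene in CON 3 by the same factor, members and other genes alike. Of the 91 members that no longer met the rule, CON 3 was at or below the highest LPS library in 72. It was the only such library in 42, so CON 3 alone does not cover the loss. The loss also differed with gene length. With this scaling the rule was met by 7 of 10 members under 1000 bases and 48 of 118 of 1000 to 4000 bases. Of the 22 members over 4000 bases 4 met it. The reason for this was not tested. With quantile normalization 162 genes met the rule, 103 of them members, and 56 members met it under both. Among these 56 were 7 of the 8 members with a step of at least 1.5-fold, ENSGALG00000010986 and ENSGALG00000006189 included. The exception was the chromosome 19 gene with GEN 3 just above LPS. Of the 11 members whose counting intervals did not meet, 6 met the rule under both.

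Scaling by fragments moved the median of all genes tested to 0.16 for LPS minus CON and to 0.18 for GEN minus CON. Relative to that shift the 150 members' median for LPS minus CON was -0.3, against -0.31 with the deposited values. This scaling changes all genes of a library by the same factor, so taking off the shift largely restores the deposited difference. The closeness of these values therefore follows from the arithmetic and is no test of the members.

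Leaving out a library loosens the rule, so more genes meet it. Without CON 3, 284 genes did, including 149 of the 150 members, and without CON 1 256 did. A member cannot lose its order when a library is left out and can only fall below the FPKM filter. The 149 are therefore no test of how the members depend on CON 3. Without LPS 1, LPS 2 or LPS 3 the count was 290, 396 or 284. LPS 2 set the limit most often, being the highest LPS library for 68 members, while LPS 3 was so for 48 and LPS 1 for 34. Among the other 6, the lowest library was spread more evenly, from 24 to 35 members each, save for CON 3 with 9.

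In features that the rule did not use, or used only as a minimum, the members were expressed above the middle of the 10730 genes. Their median level was 20.9 FPKM, against 11.5 FPKM for the 10730 genes, and 12.7% averaged under 5 FPKM, against 29.3%. Their lowest library held a median of 950.5 fragments, against 317.5. The median coefficient of variation was 5.86% in GEN and 5.24% in LPS among members, against 11.4% and 11.2% among the 10730 genes. A rule that asks for groups without overlap favours genes of low spread, and genes with many fragments carry less counting error. Level, fragments and spread were therefore not tested as properties of the members. The median gene length was 2523.5 bases, against 2338, and the median genomic span 13154.5 bases, against 13282. In 48.7% the gene lay on the plus strand, against 50.1%.

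Members lay on every numbered chromosome with genes among the 10730, save chromosome 24 (0 of 139), but not evenly. Chromosome 1 held 29 (1.78% of its genes), chromosome 4 held 19 (2.1%), chromosome 3 held 15 (1.59%), and chromosomes 2 and 5 held 11 each (1.04% and 1.4%). Shares were lower on some smaller chromosomes, such as 18 (0.377%), 21 (0.459%) and 23 (0.427%), with 1 member each. On others they were about as high as on chromosome 1 or higher, as on 7 (1.99%, 8 members), 9 (1.94%, 7), 12 (1.78%, 5) and 17 (1.93%, 5). Differences between chromosomes were not tested. Only 1 lay on an unplaced scaffold. The span of 35 members (23.3%, against 26.7% of the 10730 genes) met that of another gene model, on the opposite strand in 20 and on the same strand in 16, with 1 counted in both. No strand setting is given, so their fragments cannot be told apart from those of the overlapping gene with certainty.

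Neighbouring members were found at 3 places, where no other gene of the 10730 lay between. How many such places scattered members would give was not estimated, so the 3 are not read as clustering. On chromosome 7 a gene at 2249420 to 2257089 averaged 14.1 ± 0.607 FPKM in GEN, 12 ± 0.608 FPKM in LPS and 16.6 ± 5.38 FPKM in CON. The next, 189 bases further on the same strand (2257279 to 2263751), averaged 18.2 ± 0.885 FPKM in GEN, 15.9 ± 0.479 FPKM in LPS and 20.3 ± 4.3 FPKM in CON (SD, n = 3 each). Both CON means carry a high CON 3, at 22.8 and 25.3 FPKM.

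On chromosome 5 the pair stood head to head on opposite strands, with 396 bases between (50665051 to 50674947 and 50675344 to 50685676). The first averaged 17.3 ± 1.16 FPKM in GEN, 15.4 ± 0.961 FPKM in LPS and 19.1 ± 2.84 FPKM in CON. The second averaged 39.3 ± 3.01 FPKM in GEN, 31.8 ± 2.94 FPKM in LPS and 44 ± 6.81 FPKM in CON (SD, n = 3 each). On chromosome 1 the abundant gene of 663 bases was followed, after 924 bases and on the other strand, by a gene of 390 bases (48153238 to 48153627), which overlaps a further gene model. That gene averaged 13.9 ± 1.57 FPKM in GEN, 9.3 ± 1.72 FPKM in LPS and 17.9 ± 9.97 FPKM in CON. All 6 genes of these pairs met the rule under both other scalings, and whether neighbours share fragments or regulation was not tested.

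GEN against CON is the comparison that the rule does not use directly, and it asks whether chicks given both agents reached the level of the basic diet at these genes. limma called 0 of the 150 members at an adjusted p under 0.05, and 0% of the 13506 genes tested. At an unadjusted p under 0.05 there were 2 members (1.33%), against 10.8% of all genes tested and 10.1% of the 10730. Without CON 3 there were 7 members (4.67%), against 15.3% of the 10730. The members' share was thus below the background in both fits, but the rule leaves out every gene whose LPS level lies between those of GEN and CON, so it is not free of this comparison, and a p above the threshold does not show that the levels were alike.

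**Figure D4:**
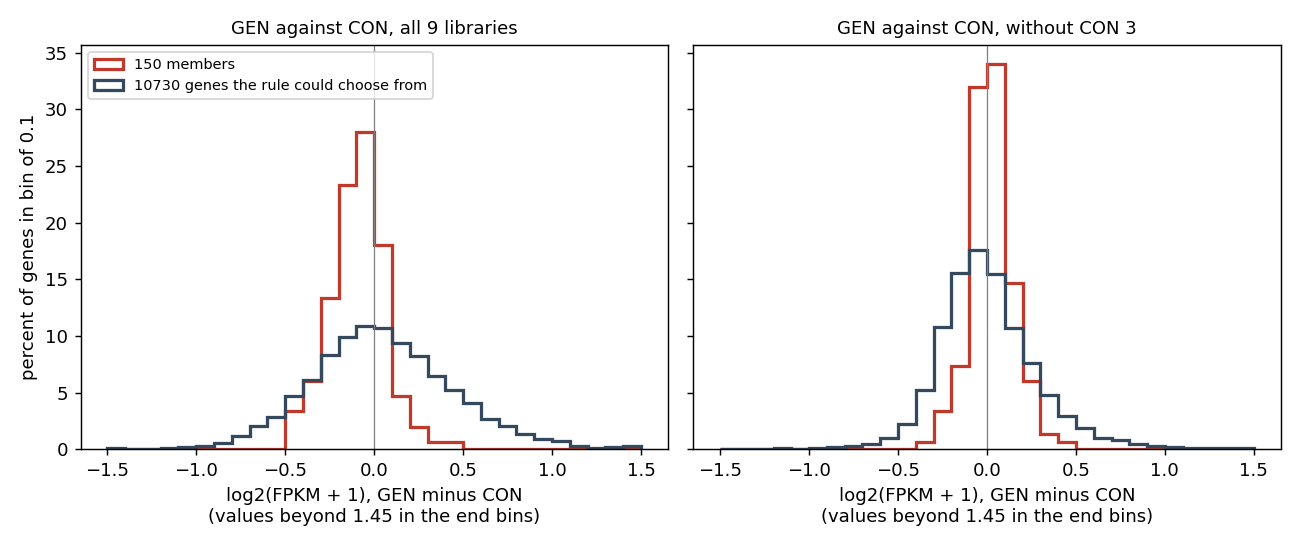
Histograms give the percent of genes in bins of 0.1 of the log2(FPKM + 1) difference GEN minus CON, for the 150 members (red) and the 10730 genes the rule could choose from (dark), with all 9 libraries (left) and without CON 3 (right). The members' median moves between -0.08 with CON 3 and 0.03 without it, and their spread is narrower in both panels.

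The members' GEN minus CON difference ran between -0.49 and 0.43, with a median of -0.08, and the median standard error of a member was 0.14 (limma). Without CON 3 the median was 0.03, so the side of 0 on which it fell depended on that library; over the 10730 genes the medians were 0.02 and -0.02. The GEN mean was above the CON mean for 39 members, and above the mean of CON 1 and CON 2 for 86. The same counts over the 10730 genes are not given here, so neither is read as a result about the members. Every GEN library was above every CON library for 7 members (4.67%, against 9.16% of the 10730 genes), and every GEN library was below every CON library for 14 (9.33%, against 11.6%). The other 129 had overlapping GEN and CON groups. Both counts depended on CON 3. Without it, every GEN library was above both CON libraries for 26 members (17.3%, against 15.4% of the 10730 genes) and below both for 18 (12%, against 20.3%), and the other 106 overlapped. For members higher in GEN the share thus lay below the background with CON 3 and near it, slightly above, without. The rule acts on GEN and CON values too, so these shares are not read as a property of the members.

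Of the members higher in GEN, ENSGALG00000009690 on chromosome 3 (21085200 to 21149788) had the lowest p. It measured 20.9, 21.3 and 19.6 FPKM in GEN, 13.2, 15.1 and 13.4 FPKM in LPS, and 15.2, 18.4 and 16.2 FPKM in CON. CON lay between, with CON 1 just above LPS 2. GEN minus CON was 0.3 on the log2 scale (SE 0.13), with an unadjusted p of 0.0419 and an adjusted p of 0.452 by limma, higher in 3 of 3 libraries. ENSGALG00000032170 on chromosome 17 (869297 to 871747) measured 3.49, 4.51 and 4.68 FPKM in GEN, 2.66, 1.9 and 2.3 FPKM in LPS, and 3.22, 2.8 and 3.32 FPKM in CON. Its GEN minus CON difference of 0.34 (SE 0.17) had an unadjusted p of 0.0743 and an adjusted p of 0.453 by limma. This gene rested on only 38 to 99 fragments per library. With fragment scaling the differences were 0.49 for ENSGALG00000009690 and 0.5 for ENSGALG00000032170. Relative to the shift of all genes they were 0.31 and 0.32, which lie near the deposited values by construction. With limma-voom they were 0.52 and 0.64. Neither gene met the rule when libraries were scaled by fragments.

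Of the members lower in GEN than CON, ENSGALG00000004897 on chromosome 1 (15836984 to 15848465) measured 19.1, 20.4 and 18.3 FPKM in GEN, 18.1, 18.2 and 16.5 FPKM in LPS, and 24.4, 25.7 and 21.1 FPKM in CON. GEN 3 was level with LPS 2, so the step lay mainly between CON and both treated groups. GEN minus CON was -0.29 (SE 0.12), with an unadjusted p of 0.0452 and an adjusted p of 0.452 by limma. With fragment scaling the difference was -0.09, or -0.27 relative to the shift of all genes, and with limma-voom it was -0.1. This gene met the rule under neither other scaling. ENSGALG00000003085 on chromosome 6 (9409873 to 9417895) measured 244, 224 and 227 FPKM in GEN, 210, 214 and 203 FPKM in LPS, and 277, 253 and 372 FPKM in CON. Its difference of -0.36 (SE 0.16) had an unadjusted p of 0.0513 and an adjusted p of 0.452 by limma. Without CON 3, the highest library, it was -0.19. It was -0.15 with fragment scaling, or -0.33 relative to the shift of all genes, -0.15 with limma-voom and 0.03 with quantile normalization. For both genes the value relative to the shift lies near the deposited value by construction.

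The 7 members with every GEN library above every CON library had a median GEN-to-LPS ratio of 1.32 and a median LPS-to-CON ratio of 0.888. In the 14 with every GEN library below every CON library these were 1.09 and 0.777. Their GEN-to-CON ratios ran from 1.08 to 1.36 in the 7 and from 0.708 to 0.975 in the 14. A gene's GEN-to-CON ratio is the product of its GEN-to-LPS and LPS-to-CON ratios. Differences between the classes, with or without CON 3, therefore largely follow from the split and are not read as kinds of response. Without CON 3, the 26 members above both CON libraries had a median GEN-to-LPS ratio of 1.27 and a median LPS-to-CON ratio of 0.883, and the 18 below both had 1.09 and 0.841.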

How the data were processed

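Total RNA of 9 chick thymus samples was sequenced from Illumina TruSeq libraries, per the labels' protocols. The authors deposited FPKM per gene for each library, with gene positions and lengths per the file headers. CASAVA 1.8, featureCounts 1.5.0-p3 and build GRCg6a are named in the submitters' processing notes. Which aligner, annotation release and strand setting were used is not given in the sources used here. In the table, 0 columns belong to other samples.

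FPKM times gene length fell on whole multiples of 1 step per library (100% of values above 0 within 0.01), which gave fragments per gene and the authors' scaling total. Libraries of a group differed by more than counting error (chi-square per degree of freedom 14.9 to 280), and none was identical to another. limma 3.58.1 (R 4.3.3) was fitted to log2(FPKM + 1), with a mean-dependent prior, over all 9 libraries and the 13506 genes that reached 1 FPKM in 3 or more of them; p-values are two-sided and were adjusted by the Benjamini-Hochberg method across these genes. The log2(FPKM + 1) scale understates changes of low genes. Python 3.11.15, scipy 1.17.1 and matplotlib 3.10.9 were used.

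The members, lists and tests were chosen with earlier results of these data known. Gene lists and cell type markers written beforehand by symbol could not be used, as 0 of 25016 identifiers matched the GRCg7b reference table. Genes were named by the rule written for that case: the 2 members with the widest separation, and for GEN against CON the 2 higher and 2 lower with the lowest p, at a mean of at least 1 FPKM and at least 10 fragments in at least 3 libraries. Alternatives were another pseudocount (0.1), other filters and scalings, no trend, fewer libraries, library weights, a replicate block, limma-voom on recovered fragments, and leaving out each library.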

Additional observations from a re-analysis of the deposited data

How the results depend on the processing

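limma called 0 members in GEN against CON at an adjusted p under 0.05 under every alternative run, the replicate block and limma-voom included. At an unadjusted p under 0.05, 1 member was higher and 1 lower in GEN. These counts were 2 and 4 without a filter, 6 and 4 with library quality weights, 5 and 0 with libraries scaled by fragments, 6 and 0 with limma-voom, 0 and 0 with only the 6 GEN and CON libraries, 8 and 1 with quantile normalization, and 1 and 0 without the trend. Leaving out a library gave 0 to 3 higher (3 without CON 3; 0 without CON 1, GEN 2, GEN 3 or any LPS library) and 0 to 7 lower (7 without CON 2, 4 without CON 3, 2 without CON 1; 0 without GEN 1, GEN 3 or any LPS library). Over the 10730 genes the share in either direction was 10.1% in the main fit and 15.3% without CON 3. It is not given here for the other settings, so no move of these counts is read as a result about the members. The cause was not tested. The number of members was 69 with libraries scaled by fragments and 190 to 396 with a library left out. The median GEN minus LPS difference was 0.256 with a pseudocount of 0.1 or with fragment scaling and 0.255 with quantile normalization. With fragment scaling the median LPS minus CON difference was -0.142 and the median GEN minus CON difference 0.11, while all genes tested moved to 0.18.

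Of the 19 alternatives for the GEN minus CON differences of the 6 named genes, 8 cannot move a difference by construction. Under the other 11, 65 of 66 differences kept their sign, the exception being ENSGALG00000003085 with quantile normalization. Under all 19, 0 had an adjusted p under 0.05 (0.088 to 0.896). The meaning of the replicate numbers is not stated. Deviations of same-numbered libraries correlated at -0.1 to 0.335 across genes, and the replicate block gave 1 member higher and 1 lower, as without it. Depth limits the members of low level most: 1 member had under 10 fragments in a library.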
